A study of Mus musculus with 6 samples.

Results

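The 10 genes described here encode the coactivators YAP and TAZ (Yap1 and Wwtr1), their DNA-binding partner TEAD1 (Tead1), the inhibitory kinase LATS2 (Lats2) and known targets of the pathway (Ccn1, Ccn2, Ankrd1, Amotl2, Axl and Thbs1). They were taken by gene symbol, and all 10 were found among the 25416 genes of the deposited table. AML12 is a hepatocyte line from a mouse that carried a transgene for human TGF alpha, so both groups share that origin. One group received a scrambled RNA (siNC, n = 3) and the other an siRNA against Setdb1 (siSetdb1, n = 3), each for 72 h at a stated amount of 50 (unit written as nm). The comparison asks which transcripts differ when the mRNA of Setdb1, a histone methyltransferase gene, is reduced. Polyadenylated RNA was sequenced, and the labels do not say whether replicates are separate cultures. All p-values therefore rest on the spread among these 6 libraries alone, and that spread may be technical.

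In the Hippo pathway the kinases MST and LATS phosphorylate YAP and TAZ, which then stay in the cytoplasm or are degraded. Unphosphorylated YAP and TAZ enter the nucleus, bind TEAD factors and raise the transcription of targets such as Ccn1, Ccn2 and Ankrd1. Some targets, among them Lats2 and Amotl2, encode inhibitors of YAP and act as feedback. In the liver the pathway is known for its control of organ size, regeneration and the choice between hepatocyte and biliary fate. It acts largely through protein phosphorylation and location, which RNA levels do not measure.

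TEAD factors bind a short core that reads GGAATG on one strand and CATTCC on the other, and the sequences below show where this core lies before the start sites of the genes. In the RefSeq promoter windows of GRCm38.p6, the assembly of mm10, 7 of the 10 genes had an entry, and Ccn2, Tead1 and Thbs1 had none. The 250 bases before the start held the core, searched on both strands, in 6 of the 7 genes (7 of 9 windows), compared with 12.6% of all 32851 windows. Lats2, with 2 windows, was the gene without a match. Counted by gene, the core was also found in 4 of 6 other TEAD genes and genes of their VGLL cofactors with an entry, 5 of 11 genes of the serum response factor SRF and its partners, 8 of 23 kinases and regulators, 2 of 10 other signature targets, 2 of 10 relatives of the targets and 1 of 8 further targets, beside 14.4% of all 27025 genes with an entry. The matches are given with the 10 bases on either side, 5′ to 3′ on the strand of the gene, with the core in capitals.
Ccn1, chr3:145650083-145650088, minus strand: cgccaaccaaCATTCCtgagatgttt
Ankrd1, chr19:36120049-36120054, minus strand: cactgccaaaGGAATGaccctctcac
Ankrd1, chr19:36119962-36119967, minus strand: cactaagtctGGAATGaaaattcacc
Amotl2, chr9:102717739-102717744, plus strand: gaaactctcaCATTCCtggcatagca
Axl, chr7:25788961-25788966, minus strand: aaattctacaGGAATGtttaccagac
Yap1, chr9:8004732-8004737, minus strand: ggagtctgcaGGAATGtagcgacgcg
Wwtr1, chr3:57576041-57576046, minus strand: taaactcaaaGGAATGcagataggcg

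Both Wwtr1 windows hold the same match. Ankrd1 was the only one of the 7 genes with 2 cores in a window. Their near edges lie 205 and 118 bases before the RefSeq start. Both cores are inside the bounds of the gene given below, as is the core of Amotl2. The near edge of the core lies 98 bases before the start in Ccn1 and 228 bases before it in Axl. The whole 250 bases before the start are shown for Ccn1 (chr3:145649986-145650235) and Axl (chr7:25788734-25788983), both on the minus strand. The windows of these 2 targets lie wholly outside the bounds of their genes given below.
Ccn1: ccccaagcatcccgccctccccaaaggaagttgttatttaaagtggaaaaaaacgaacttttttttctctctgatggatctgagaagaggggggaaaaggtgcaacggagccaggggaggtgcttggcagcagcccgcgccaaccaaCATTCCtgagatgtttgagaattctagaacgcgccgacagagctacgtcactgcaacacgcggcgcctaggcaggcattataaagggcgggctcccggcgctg
Axl: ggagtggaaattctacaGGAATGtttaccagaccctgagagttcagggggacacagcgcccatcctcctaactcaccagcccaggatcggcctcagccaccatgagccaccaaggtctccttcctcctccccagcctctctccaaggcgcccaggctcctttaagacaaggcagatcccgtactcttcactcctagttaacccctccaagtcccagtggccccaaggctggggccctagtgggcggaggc

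The windows of the 7 genes held no AP-1 element (TGANTCA, either strand, present in 6.7% of all windows) and no CArG box, the element of SRF (1.5% of all windows). A match of letters describes the window and is not a measured binding site.

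The libraries held 16790582 to 17835060 reads. Levels are given as FPKM, which divides the reads of a gene by its exon length and by the reads of the library. Setdb1 mRNA was at 8.41, 8.54 and 9.43 FPKM in siNC replicates 1 to 3 and at 4.29, 4.21 and 3.29 FPKM in siSetdb1 replicates 1 to 3, and its mean fell by 55.3%. A log2 fold change below is the siSetdb1 mean minus the siNC mean of log2(FPKM + 1), and for genes of low level it is smaller than the true ratio. The p-values come from limma, were adjusted over 12846 tested genes by the Benjamini-Hochberg method and were read against a threshold of 0.05.

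The labelled cell type was checked against its markers. Of 6 measured hepatocyte markers, Hnf4a was at 27.1 to 38.2 FPKM, Ttr at 4.15 to 38.1 FPKM, Apoa1 at 4.12 to 28.6 FPKM and Alb at 1.45 to 14.3 FPKM, while Cps1 and Serpina1a stayed under 0.5 FPKM in every library. Of 5 measured biliary markers, Krt19 (1204 to 1444 FPKM), Krt7 (146 to 225 FPKM) and Spp1 (109 to 256 FPKM) were above these in every library, Sox9 was at 4.48 to 10.7 FPKM and Cftr at most at 0.0075 FPKM. Markers of fibroblasts or stellate cells summed to at most 1.22 FPKM over 5 genes and those of endothelium to at most 0.193 FPKM over 5 genes. The 4 measured macrophage markers summed to 4.75 to 6.64 FPKM in siNC and 2.39 to 3.17 FPKM in siSetdb1. Most of that sum was Cd68, a lysosomal protein gene, which fell (4.07 to 6.11 FPKM in siNC, 2.10 to 2.99 FPKM in siSetdb1, limma adjusted p = 0.012). Lyz2 (0.354 to 0.524 FPKM in siNC, 0.088 to 0.223 FPKM in siSetdb1) and Csf1r (0.144 to 0.161 FPKM in siNC, 0.0609 to 0.0971 FPKM in siSetdb1) were also lower in every siSetdb1 library. Both were under the filter and not tested, and Ptprc was at most at 0.0096 FPKM.

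Most of the 10 genes, including Yap1, Wwtr1, Tead1 and Lats2, did not pass the test after Setdb1 knockdown. The targets Thbs1 and Ccn2 rose and the target Amotl2 fell, so that 3 of 10 genes passed where 15.1% of all tested genes did. Of all tested genes 6.87% rose and 8.27% fell. All 10 genes passed the filter on low values, with 291 to 13197 reads per gene and library. The log2 fold change was above 0 for 9 of the 10 genes, with a median of 0.17, compared with 46.7% of all tested genes and a median of -0.02. Because the genes were chosen with earlier results of these data known, such shares are a description and not a test. All 3 siSetdb1 libraries lay above all 3 siNC libraries for Lats2, Ccn2, Axl and Thbs1 and below them for Amotl2. The groups thus did not overlap for 5 of 10 genes, against 39.2% of all tested genes (17.6% with siSetdb1 above and 21.6% with siSetdb1 below).

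**Figure D1:**
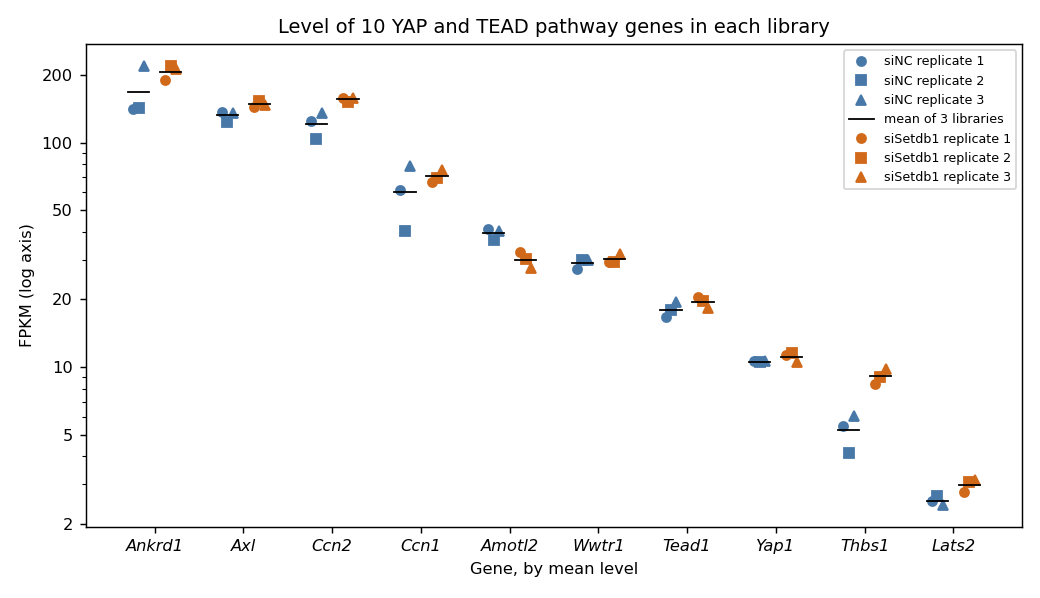
FPKM of each gene on a log axis, with 1 point per library, siNC to the left and siSetdb1 to the right of each gene and a bar at the mean of 3 libraries. Thbs1 lay between 4.14 and 6.04 FPKM in siNC and between 8.41 and 9.83 FPKM in siSetdb1, Amotl2 was lower in siSetdb1, and Ccn1 and Ankrd1 were widely spread within siNC.

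Yap1 (ENSMUSG00000053110, chromosome 9, 7931999 to 8004596 of mm10, minus strand) was at 10.6, 10.5 and 10.6 FPKM in siNC and at 11.3, 11.5 and 10.5 FPKM in siSetdb1. siSetdb1 replicate 3 was the lowest of all 6 libraries and the other siSetdb1 libraries were the highest, so the groups overlapped. The log2 fold change was 0.06 (95% interval -0.09 to 0.21, adjusted p = 0.559, limma). The within-group spread of Yap1 was small, at percentile 5.04 of all tested genes.

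Wwtr1, the gene of TAZ (ENSMUSG00000027803, chromosome 3, 57455649 to 57575910, minus strand), had 27.3, 30.0 and 30.1 FPKM in siNC and 29.4, 29.4 and 31.9 FPKM in siSetdb1. Its groups overlapped and its log2 fold change was 0.05 (95% interval -0.12 to 0.22, adjusted p = 0.662, limma). The estimate was -0.02 after trends with GC content and exon length were removed. Per length of exon, Wwtr1 mRNA was above Yap1 mRNA in each of the 6 libraries.

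Tead1 (ENSMUSG00000055320, chromosome 7, 112679318 to 112906807, plus strand) had 16.7, 17.9 and 19.4 FPKM in siNC and 20.5, 19.7 and 18.4 FPKM in siSetdb1. siSetdb1 replicate 3 lay below siNC replicate 3, and the log2 fold change of 0.11 did not pass (95% interval -0.07 to 0.30, adjusted p = 0.356, limma). The intervals of these 3 factor genes reach no further than 0.30 on the log2 scale.

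Lats2 (ENSMUSG00000021959, chromosome 14, 57689662 to 57758388, minus strand), a kinase of the pathway and one of its targets, was the lowest of the 10 genes, with 2.53, 2.66 and 2.43 FPKM in siNC and 2.77, 3.07 and 3.13 FPKM in siSetdb1. The groups did not overlap, but the log2 fold change of 0.17 did not pass (95% interval -0.01 to 0.36, adjusted p = 0.18, limma). Its 291 to 389 reads per library were the fewest of the set.

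Thbs1 (ENSMUSG00000040152, chromosome 2, 118111876 to 118127133, plus strand), which encodes thrombospondin 1, a matrix glycoprotein that can activate latent TGF beta, had the largest change of the 10 genes. It was at 5.47, 4.14 and 6.04 FPKM in siNC and at 8.41, 9.06 and 9.83 FPKM in siSetdb1, with every siSetdb1 library above every siNC library. Its mean rose 1.74-fold, from 5.22 ± 0.98 to 9.10 ± 0.71 FPKM (SD, n = 3 libraries each), and the limma estimate on the log2 scale was 0.71 (SE 0.12, adjusted p = 0.0113). Thbs1 passed under each of the 14 alternative settings, with adjusted p of 0.0137 to 0.0486 when 1 library at a time was left out.

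Ccn2 (ENSMUSG00000019997, chromosome 10, 24595442 to 24598683, plus strand), the gene of connective tissue growth factor, had 125, 104 and 135 FPKM in siNC and 158, 152 and 158 FPKM in siSetdb1. The 3 siSetdb1 libraries lay close together above all siNC libraries, and the mean rose 1.29-fold, from 121 ± 15.9 to 156 ± 3.86 FPKM (SD, n = 3 libraries each). The log2 fold change was 0.37 (SE 0.10, adjusted p = 0.0467, limma), close to the threshold. Leaving out siNC replicate 1 gave an adjusted p of 0.0504 and leaving out siNC replicate 2 gave 0.0909. It was 0.145, 0.117 and 0.115 when siSetdb1 replicate 1, 2 or 3 was left out, and 0.117 when low genes were kept in.

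Markers of other cell types were read beside these rises because fibroblasts and endothelial cells express Thbs1 and Ccn2 strongly. The fibroblast and stellate cell markers Col1a1 (0.136 to 0.169 FPKM in siNC, 0.223 to 0.238 FPKM in siSetdb1), Col3a1 (at most 0.00593 FPKM), Pdgfrb (at most 0.021 FPKM in siNC, 0 FPKM in siSetdb1) and Dcn (at most 0.0102 FPKM) were near 0. The summed endothelial list of 5 genes was 0.0553 to 0.122 FPKM in siNC and 0.118 to 0.193 FPKM in siSetdb1. Its gene Cdh5, with only 2 to 14 reads per library, was higher in all 3 siSetdb1 libraries (0.0964 to 0.187 FPKM) than in siNC (0.0273 to 0.0709 FPKM). Tek of the same list went the other way, at 0.0122 to 0.0379 FPKM in siNC and 0 FPKM in every siSetdb1 library. The summed fibroblast and stellate list was 0.634 to 0.649 FPKM in siNC and 0.84 to 1.22 FPKM in siSetdb1, and Des was the only one of its 5 measured genes to reach 0.5 FPKM. The summed hepatocyte list of 6 measured genes was 70.5 to 111 FPKM in siNC and 39.8 to 59.0 FPKM in siSetdb1. The part of these markers in the results on the 10 genes was not tested, and in bulk RNA fewer cells of a type and less RNA per cell cannot be told apart.

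Ccn1 (ENSMUSG00000028195, chromosome 3, 145646976 to 145649981, minus strand), a paralog of Ccn2 whose product is likewise a secreted matricellular protein, did not pass. Its levels were 61.5, 40.6 and 78.8 FPKM in siNC and 67.1, 69.4 and 75.6 FPKM in siSetdb1. The siNC libraries spanned the whole range of siSetdb1, with a highest-to-lowest ratio of 1.94 in siNC against 1.13 in siSetdb1. The log2 fold change of 0.28 had a 95% interval of -0.22 to 0.78 (adjusted p = 0.411, limma), and it was 0.02 without siNC replicate 2, the lowest library.

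Ankrd1 (ENSMUSG00000024803, chromosome 19, 36111961 to 36120099, minus strand), which encodes an ankyrin repeat protein of muscle and stressed cells and has 2 cores in its promoter window, was the most abundant of the 10 genes per length. It had 141, 143 and 219.9 FPKM in siNC and 189.7, 219 and 212 FPKM in siSetdb1. siNC replicate 3 lay above all siSetdb1 libraries, while siNC replicates 1 and 2 lay below them. The log2 fold change of 0.33 did not pass (95% interval -0.07 to 0.73, adjusted p = 0.233, limma), and it was 0.54 (limma adjusted p = 0.0159) without siNC replicate 3.

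The within-group spread of Ccn1 and Ankrd1 was at percentiles 94.9 and 90.7 of all tested genes, against 63.4 for Ccn2 and 78.1 for Thbs1. In siNC, replicate 2 was the lowest and replicate 3 the highest library for Ccn1, Ccn2 and Thbs1, an order noticed after the values were seen and shared by 11.6% of all tested genes. The SD of log2(FPKM + 1) was larger in siNC than in siSetdb1 for 7 of the 10 genes, beside 66.9% of all tested genes.

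Amotl2 (ENSMUSG00000032531, chromosome 9, 102716672 to 102733418, plus strand), a target that encodes an angiomotin-family protein that binds YAP and inhibits it, was the only one of the 10 genes with a lower mean in siSetdb1. It had 41.1, 36.8 and 40.5 FPKM in siNC and 32.4, 30.2 and 27.6 FPKM in siSetdb1, with no overlap between the groups. The mean fell by 23.9%, from 39.5 ± 2.32 to 30.1 ± 2.36 FPKM (SD, n = 3 libraries each), and the limma estimate on the log2 scale was -0.38 (SE 0.081, adjusted p = 0.0221). Leaving out siNC replicate 3 gave an adjusted p of 0.0565, and leaving out siSetdb1 replicate 2 or 3 gave 0.0787 or 0.0722. It was 0.064 when low genes were kept in.

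Axl (ENSMUSG00000002602, chromosome 7, 25757273 to 25788705, minus strand), a receptor tyrosine kinase gene of the TAM family, had 137, 124 and 136 FPKM in siNC and 144, 154 and 147 FPKM in siSetdb1. The groups did not overlap, but the log2 fold change of 0.16 did not pass (95% interval from just below 0 to 0.32, adjusted p = 0.159, limma). After trends with GC content and exon length were removed it was 0.20 and passed (limma adjusted p = 0.043).

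**Figure D2:**
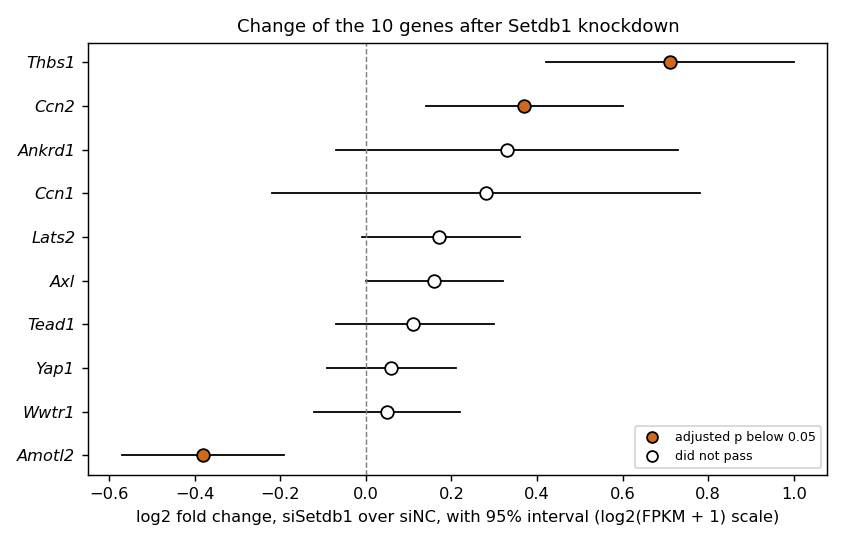
Log2 fold change of siSetdb1 over siNC for the 10 genes on the horizontal axis, with 95% intervals as lines and filled points for an adjusted p below 0.05. Thbs1 (0.71) and Ccn2 (0.37) are filled on the right and Amotl2 (-0.38) on the left, and the intervals of Yap1, Wwtr1 and Tead1 are narrow and include 0.

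In siNC the order of levels per length was Ankrd1, Axl, Ccn2, Ccn1, Amotl2, Wwtr1, Tead1, Yap1, Thbs1 and Lats2. The neighbours whose siNC libraries overlapped were Axl with Ccn2 and Ccn1 with Amotl2. In siSetdb1, Ccn2 (152 to 158 FPKM) came before Axl (144 to 154 FPKM) with overlapping libraries, and Amotl2 (27.6 to 32.4 FPKM) came after Wwtr1 (29.4 to 31.9 FPKM), also with overlap. The targets Ankrd1, Axl, Ccn2 and Ccn1 were each above Yap1, Wwtr1 and Tead1 in every library, and Thbs1 was below Yap1 in every library.

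Left-out libraries changed the count of called genes among the 10. The number that rose was 1 without siNC replicate 1, siNC replicate 2 or any 1 siSetdb1 library, and 3 without siNC replicate 3. None of the 10 fell (0 genes) when siNC replicate 3, siSetdb1 replicate 2 or siSetdb1 replicate 3 was left out. Over all 12846 genes, 1945 passed with all libraries, and 2176, 1060 or 1402 did so when siNC replicate 1, 2 or 3 was left out. The count was 689, 683 or 978 when siSetdb1 replicate 1, 2 or 3 was left out.

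**Figure D3:**
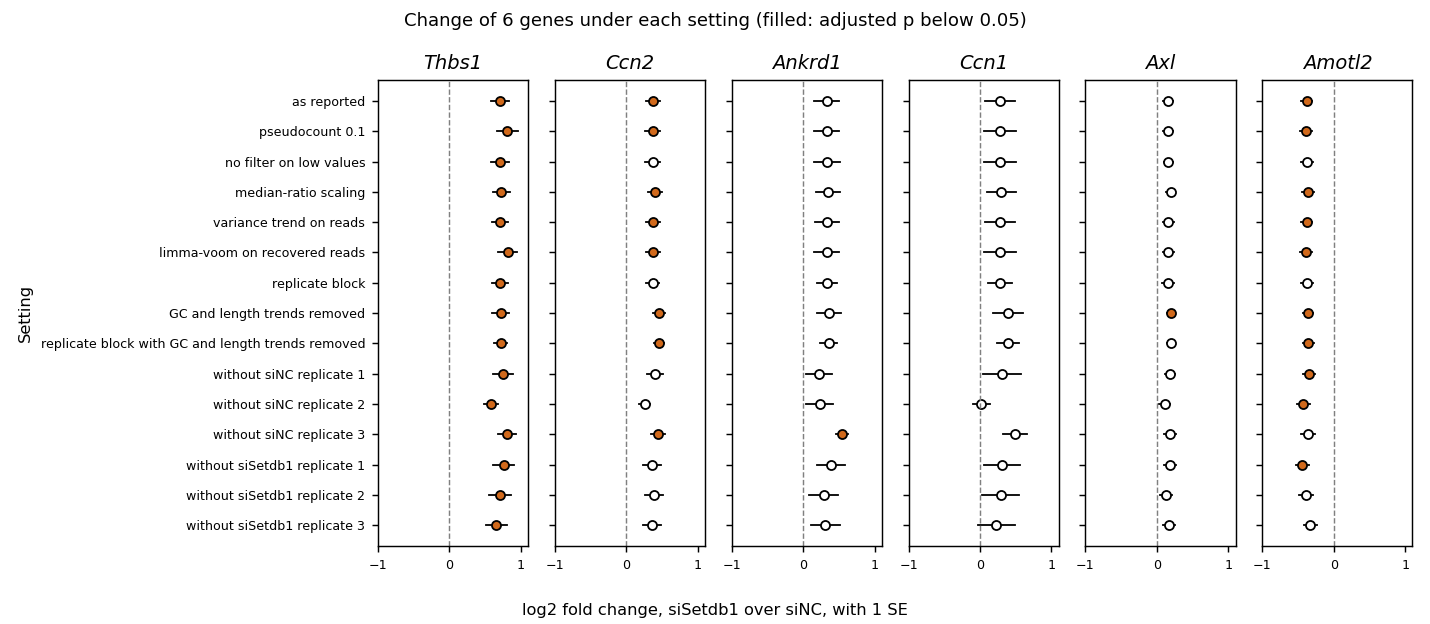
Log2 fold change with 1 SE on the horizontal axes for 6 genes (columns) as reported and under the 14 alternative settings (rows), filled where the adjusted p was below 0.05; limma-voom values are log2 reads scaled to library size. Thbs1 is filled in every row, Ccn2 and Amotl2 in some, Ankrd1 only without siNC replicate 3, Axl only with GC and length trends removed, and Ccn1 in none.

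The genes whose profile over the 6 libraries was most like that of Ccn2 came from outside the pathway lists. Those lists hold only a small part of the 12846 tested genes. Likeness was the root mean square difference between profiles of log2(FPKM + 1) after each gene's own mean was taken off. The nearest were Il1rn, the gene of the interleukin 1 receptor antagonist (difference 0.0269, at 0.613 to 1.45 FPKM), Fgd3, an exchange factor gene (0.0473), and Slc31a2, a copper transporter gene (0.0529). At so low a level the pseudocount of 1 shrinks differences, and the rank of Il1rn under another pseudocount was not computed. Of the other 9 genes Axl was nearest to Ccn2 (0.134, rank 556 among the tested genes) and Amotl2 farthest (0.389, rank 11231). For Yap1 the nearest were Cdk7, a kinase gene of transcription and the cell cycle (0.0132), Dido1 (0.0143) and Zfp236 (0.0145).

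Among the kinases, scaffolds and upstream regulators of the pathway, Taok3 had the largest change. Of 27 listed genes 25 were tested, of which 3 rose, 2 fell and 20 did not pass (median log2 fold change 0.06), so that 5 of 25 passed beside 15.1% of all tested genes. Taok3, a kinase gene of the TAO family that acts above the MST kinases, fell from 4.45, 4.67 and 4.87 FPKM in siNC to 2.00, 1.81 and 2.05 FPKM in siSetdb1 (log2 fold change -0.94, adjusted p = 0.00114, limma). Its groups were far apart, and it passed under every alternative setting. Amotl1, a paralog of Amotl2, rose from 9.17, 9.74 and 9.53 FPKM to 13.5, 13.6 and 12.9 FPKM (log2 fold change 0.45, adjusted p = 0.00577, limma), opposite in direction to Amotl2. The third angiomotin gene, Amot, had 4.02 ± 0.19 FPKM in siNC and 3.19 ± 0.492 FPKM in siSetdb1 (SD, n = 3 libraries each) and did not pass (limma adjusted p = 0.115). Strn3, a scaffold gene of the phosphatase complex that acts on MST kinases, rose from 11.4 ± 2.36 to 17.3 ± 0.912 FPKM (SD, n = 3 libraries each, limma adjusted p = 0.0348).

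The other genes of this list that passed, Wwc2 (log2 fold change 0.26) and Wtip (-0.40), and the core kinase genes were named after their values were seen. The MST kinase genes Stk3 (6.98 and 8.68 FPKM) and Stk4 (16.4 and 19.8 FPKM, means of siNC and siSetdb1) did not pass, Stk4 closely (limma adjusted p = 0.0514). Lats1, at 0.377 to 0.63 FPKM, was below Lats2 in every library and did not pass. In this list 1 gene rose without any 1 siSetdb1 library, and 1 fell without siNC replicate 3 or any 1 siSetdb1 library. Strn3 had an adjusted p of 0.101, 0.117 and 0.0808 (limma) without siSetdb1 replicates 1, 2 and 3.

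Of the other TEAD factors and their VGLL cofactors, 4 of 7 listed genes were tested and 1 passed (25.0%, beside 15.1% of all tested genes). The median log2 fold change was 0.16, beside -0.02 over all tested genes. Tead4 rose from 10.7, 11.4 and 10.5 FPKM to 13.5, 13.2 and 12.7 FPKM (log2 fold change 0.25, adjusted p = 0.0429, limma), with no overlap between the groups. None passed when siNC replicate 2, siNC replicate 3 or 1 siSetdb1 library was left out. Tead1 was the most abundant TEAD gene per length in every library, followed by Tead4, then Tead3 (1.06 to 1.92 FPKM), and Tead2 (0.162 to 0.30 FPKM) was under the filter.

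Further targets of YAP and TAZ moved in both directions. The 6 targets and feedback genes Lats2, Ccn1, Ccn2, Ankrd1, Amotl2 and Axl belong to a published signature of 22 genes. Of its other 16 genes 15 were tested, of which 3 rose, 2 fell and 10 did not pass (33.3% passed, beside 15.1% of all tested genes). Their median log2 fold change was 0.03, beside -0.02 over all tested genes. Over all 21 tested signature genes 4 rose and 3 fell, with a median of 0.16. Igfbp3, the gene of an IGF-binding protein, rose from 8.73, 9.09 and 9.19 FPKM to 16.0, 17.7 and 17.0 FPKM (log2 fold change 0.84, adjusted p = 0.00114, limma), with a larger estimate than any of the 10 genes. F3, the gene of tissue factor, rose from 20.1 ± 2.71 to 30.7 ± 1.33 FPKM (SD, n = 3 libraries each, limma adjusted p = 0.0096). Tgfb2, a TGF beta ligand gene, fell from 1.23, 1.12 and 1.14 FPKM to 0.46, 0.374 and 0.533 FPKM (log2 fold change -0.57, adjusted p = 0.00848, limma). Igfbp3, F3 and Tgfb2 passed under every alternative setting.

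The other 2 signature genes that passed, named after their values were seen, were Dock5 (log2 fold change 0.37) and Ccdc80 (-0.40). Myof, at 122 to 149 FPKM the most abundant of the 15 in siNC and siSetdb1, did not pass (log2 fold change -0.02). Of these 15 genes 1 fell when siNC replicate 2, siNC replicate 3 or 1 siSetdb1 library was left out.

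Of 12 further reported targets 11 were tested, of which 3 rose, 0 fell and 8 did not pass (27.3% passed, beside 15.1% of all tested genes). The median log2 fold change was 0.06, beside -0.02 over all tested genes. At an unadjusted limma p under 0.05, 2 were lower, and limma-voom called 1 lower after adjustment. Areg, the gene of the EGFR ligand amphiregulin, had 11.3, 14.4 and 13.5 FPKM in siNC and 24.7, 29.6 and 35.0 FPKM in siSetdb1 (log2 fold change 1.12, adjusted p = 0.00362, limma). Arhgap29 rose from 1.65, 2.98 and 3.29 FPKM to 4.94, 4.56 and 4.45 FPKM (limma adjusted p = 0.0435), and Myc rose from 53.0 ± 4.28 to 76.1 ± 8.07 FPKM (SD, n = 3 libraries each, limma adjusted p = 0.0153). Areg passed under every alternative setting, whereas Arhgap29 did not pass under 7 of the 14 and Myc under 2 of them. Without siSetdb1 replicate 2, 1 gene of this list rose.

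Relatives of the target genes gave no calls. Of 13 listed genes 5 passed the filter, and none of the 5 passed the limma test, beside 15.1% of all tested genes. The median log2 fold change of the 5 was -0.01. At an unadjusted p under 0.05, 1 of them, Tyro3, was lower, and limma-voom called 1 lower after adjustment. Ccn4, of the same family as Ccn1 and Ccn2, had 13.5, 13.7 and 14.9 FPKM in siNC and 14.5, 13.9 and 13.4 FPKM in siSetdb1 (limma adjusted p = 0.964). Ccn1 and Ccn2 were above Ccn4 and Ccn5 (3.24 to 5.13 FPKM) in every library. Thbs2 (at most 0.024 FPKM) was near 0 where Thbs1 was at 4.14 to 9.83 FPKM. Of the TAM receptor genes, Axl was at 124 to 154 FPKM, Tyro3 at 1.71 to 2.39 FPKM and Mertk at most at 0.0134 FPKM. Of the TAM ligand genes, Pros1 was at 3.99 to 4.63 FPKM (limma adjusted p = 0.986) and Gas6 at most at 0.0228 FPKM.

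Genes of SRF and its MRTF partners were listed because Ccn1, Ccn2 and Ankrd1 are also known to respond to them. Of 12 listed genes 8 were tested, of which 3 rose, 1 fell and 4 did not pass (50.0% passed, beside 15.1% of all tested genes). The median log2 fold change was 0.17, beside -0.02 over all tested genes. Cnn2, a calponin gene, rose from 50.6, 44.4 and 48.5 FPKM to 73.8, 77.4 and 87.2 FPKM (log2 fold change 0.72, adjusted p = 0.00312, limma). Fhl2, a LIM domain cofactor gene, rose from 32.7, 29.1 and 31.0 FPKM to 46.5, 45.5 and 46.3 FPKM (log2 fold change 0.56, adjusted p = 0.00306, limma). Both had no overlap between the groups and passed under every alternative setting. Flna, the gene of filamin A, rose from 119 ± 6.87 to 145 ± 7.46 FPKM (SD, n = 3 libraries each, limma adjusted p = 0.0382), and Tpm1, a tropomyosin gene named after its values were seen, fell by 0.21 on the log2 scale (limma adjusted p = 0.0489). Flna did not pass under 7 of the 14 alternatives, and no gene of the list fell when siNC replicate 2, siNC replicate 3 or 1 siSetdb1 library was left out. Srf (11.1 to 14.8 FPKM), Mrtfa (13.2 to 17.0 FPKM) and Mrtfb (4.54 to 5.20 FPKM) did not pass, and the smooth muscle genes Acta2, Tagln and Cnn1 were at most at 0.128 FPKM.

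**Figure D4:**
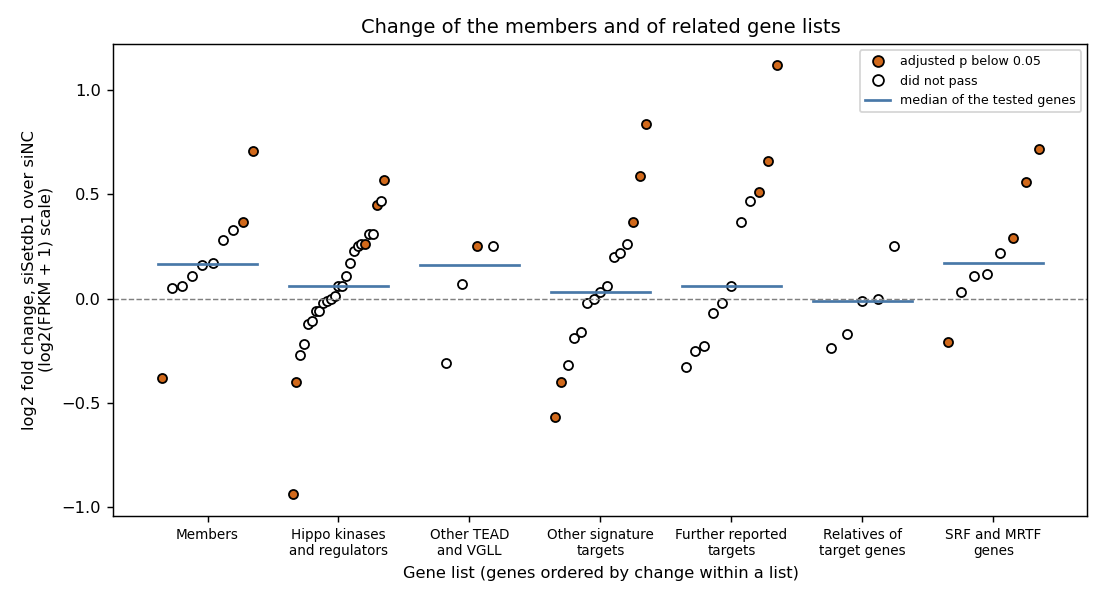
Log2 fold change of siSetdb1 over siNC for each tested gene, with the 10 genes in the first column (Members) and the 6 related lists beside it, filled where the adjusted p was below 0.05 and with a bar at each median. Each list except that of relatives holds filled points, and those of the 10 genes, the kinases and regulators, the other signature targets and the SRF and MRTF genes lie on both sides of 0.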

How the data were processed

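RNA of 3 siNC and 3 siSetdb1 samples was measured. The authors' deposited table lists 25416 genes by symbol and mm10 position, and its headers name no unit. The deposited values were found to be FPKM: multiplied by the merged exon length of the gene in GENCODE M21 (25372 IDs matched), they are whole multiples of 1 step per sample, within 0.01, for 98.8% of those genes, and the step gives the library totals. RSEM 1.2.12, HISAT2 2.0.4, DESeq2 1.4.5 and Bowtie2 2.2.5 are named, per the submitters' processing notes, without roles, and the treatment of reads that fit several genes is not given in the sources used here. FPKM depends on the total of a sample, so abundant genes that rise lower the rest. No strand-marking step is described. Antisense genes with a row overlap exons of Yap1 (at most 0.12 FPKM) and Ccn2 (at most 0.087 FPKM). Genes without a row overlap exons of Lats2 (same strand) and Thbs1 (opposite strand), so their levels could not be checked.

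Samples were grouped by their titles. The 12846 genes that reached 0.5 FPKM in 3 libraries were tested. limma 3.58.1 (R 4.3.3) was run on log2 values with a pseudocount of 1 (intensity trend, robust prior, group as the only term, two-sided, Benjamini-Hochberg). The code was tested on simulated data. The genes and lists were chosen with earlier results of these data known. Named beside the 10 genes and Setdb1 are, per list, the 3 called genes with the largest change (or the 2 most abundant if none was called), and the 3 genes most like Ccn2 and Yap1. Markers listed were 7 for hepatocytes, 6 biliary, 7 for fibroblasts or stellate cells, 5 endothelial and 5 for macrophages. Of the biliary markers (summed list 1611 to 1792 FPKM in siNC, 1604 to 1784 FPKM in siSetdb1) Krt7 and Sox9 rose and Spp1 fell, of the hepatocyte markers Ttr fell, and of the macrophage markers Cd68 fell. There were 14 alternatives: pseudocount 0.1, no filter, median-ratio scaling, a variance trend on reads, limma-voom on recovered reads, the replicate number as a block, removal of trends with GC content and exon length, both together, and each library left out.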

Additional observations from a re-analysis of the deposited data

How the results depend on the processing

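With 3 libraries per group, a gene that did not pass is not shown to be unchanged. Directions of the 10 genes held under all 14 alternatives except that of Wwtr1, at -0.02 with GC and length trends removed, with and without the replicate block. With no filter, 25416 genes were tested and adjusted for; 460 rose and 430 fell over all genes, of the 10 genes 1 rose and 0 fell, and Ccn2 (0.37) and Amotl2 (-0.38) did not pass. Per list with no filter, 1 kinase or regulator rose and 1 fell, 0 TEAD or VGLL genes rose, 1 other signature target fell and 1 further target rose. With GC and length trends removed 1437 genes rose and 1375 fell in all, and 21.9% of the genes tested passed. In that setting Axl (0.20) passed, and 6 kinases and regulators rose and 5 fell. There 1 TEAD or VGLL gene and 1 further target fell and 1 relative rose. Median-ratio scaling, the variance trend on reads and limma-voom each gave 5 rising kinases and regulators. Over all 12846 tested genes these settings gave, in the same order, 997, 1016 and 1039 risen and 847, 1241 and 1264 fallen. The shares that passed were 14.4%, 17.6% and 17.9%. Limma-voom gave 1 falling TEAD or VGLL gene, 1 falling relative and 1 falling further target, and the variance trend on reads also 1 falling further target. Under median-ratio scaling and limma-voom 0 SRF genes fell. The cause of these differences was not tested.

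Same-numbered siNC and siSetdb1 libraries deviated from their group means with correlations of -0.157, 0.167 and -0.172, and only replicate 2 of siNC correlated best with its own number. So few correlations cannot decide whether same-numbered samples were handled together, which the labels do not state. With the replicate block 480 genes rose and 535 fell, 1 of the 10 genes rose and 0 fell, and Ccn2 (0.37, adjusted p = 0.0644) and Amotl2 (-0.38, adjusted p = 0.0517) did not pass (limma). With the block, 1 kinase or regulator fell, 0 TEAD or VGLL genes rose, 1 other signature target fell and 0 SRF genes fell. With the block and GC and length trends removed, 6 kinases and regulators rose, 1 other signature target fell and 1 further target fell. Over all genes 1157 rose and 1124 fell in that setting, and 17.8% of the genes tested passed.

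With 1 library left out, counts over all genes ranged from 355 to 1101 risen and 326 to 1075 fallen, and those of the 10 genes from 1 to 3 and 0 to 1. Kinases and regulators ranged from 1 to 4 risen and 1 to 2 fallen, TEAD and VGLL genes from 0 to 1 risen, other signature targets from 1 to 2 fallen, further targets from 1 to 4 risen and SRF genes from 0 to 1 fallen. The log2 fold change ranged from 0.26 to 0.45 for Ccn2, 0.22 to 0.54 for Ankrd1 and -0.44 to -0.33 for Amotl2. Ccn4 and Pros1, near 0, ranged from -0.03 to 0.04 and -0.04 to 0.04, and were at 0.02 with median-ratio scaling, as was Ccn4 with GC and length trends removed, with and without the block. Of the 16 named genes outside the 10, those that did not pass in some settings were Arhgap29, Flna and Tead4 (7 of 14 each), Strn3 (4) and Myc (2).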
